A study of Mus musculus with 36 samples.

Results

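The comparison of modafinil with vehicle in the prefrontal cortex (PFC) rested on 16 of the 36 arrays of a study of 3 mouse brain regions, 8 from each treatment. Of 45037 probe sets other than controls, 27022 had a mean over these 16 arrays at or above the 40th percentile (6.62 on the log2 scale) and were tested. All mice were male C57B1/6J animals weighing 20 to 26 g, and their age was not given in the sources used here. Modafinil, a wakefulness-promoting drug that inhibits the dopamine transporter, was injected at 65 mg/kg on the drug days of a place preference schedule, and the vehicle mice received saline on those days. Conditioning ran from day 3 to day 10 with saline given to every mouse on the alternating days, so both groups had been handled, injected and confined for 30 min in the same way. The preference test fell on day 11, and brains were collected 24 h after the final injection. Punches 1 mm across were cut from slices 100 µm thick, and RNA integrity numbers were between 7 and 10. The arrays read messenger RNA with probe sets near the 3′ end of each transcript, and values were log2 intensities, so a difference of 1 is a doubling. The labels do not say that each array is a separate mouse, so p-values measure the spread between these samples, which may be technical. The number of arrays limits the precision.

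Interferons are cytokines that act through receptor chains, Jak kinases and Stat factors. Interferon gamma in particular switches on guanylate-binding proteins, immunity-related GTPases and the machinery that cuts and loads peptides onto class I molecules, while type I interferons favour a broad antiviral set. The circadian clock is a loop in which Arntl with Clock or Npas2 activates the Per, Cry and Nr1d genes, whose products repress it, and Dbp is among its direct outputs.

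Modafinil PFC arrays carried more messenger RNA of interferon-induced GTPases and class I loading genes than vehicle PFC arrays. With limma, 14 of 27022 probe sets passed an adjusted p of 0.05 (0.0518 percent), 12 higher (0.0444 percent) and 2 lower (0.0074 percent), with adjusted p-values from 0.0297 to 0.0457. Of these, 11 carried 1 gene symbol and named 10 genes, 2 carried several symbols and 1 carried none. The 9 named genes that rose were Gbp2, Gbp3, Irgm2, AW112010, Tap1, Tapbp, Trim21, Irf7 and Mthfd1l, and the named gene that fell was Wdfy3. These calls lay close to the threshold, and 11 of the 16 fits that left out 1 array had none, with lowest adjusted p-values of 0.0503 to 0.0747. After quantile normalization 6 of the 14 passed, among them Tapbp, AW112010 and Mthfd1l. Gbp2, Gbp3, Irgm2, Tap1, Trim21 and Irf7, each read from its brightest probe set, did not pass after it. With limma's trend and robust options none passed (lowest adjusted p = 0.0533, with 889 higher and 2271 lower at an unadjusted p under 0.05). Among probe sets with an unadjusted p under 0.05 the changes ran mainly the other way, with 980 higher (3.63 percent) and 2201 lower (8.15 percent), 11.8 percent in all. After quantile normalization of the 16 arrays that split was 1234 higher and 1347 lower. At any size 37.5 percent of probe sets were higher and 62.5 percent lower as deposited. The largest changes were upward: of the probe sets with an unadjusted p under 0.05, 21 were higher by more than 1 and 1 was lower by more than 1.

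**Figure D1:**
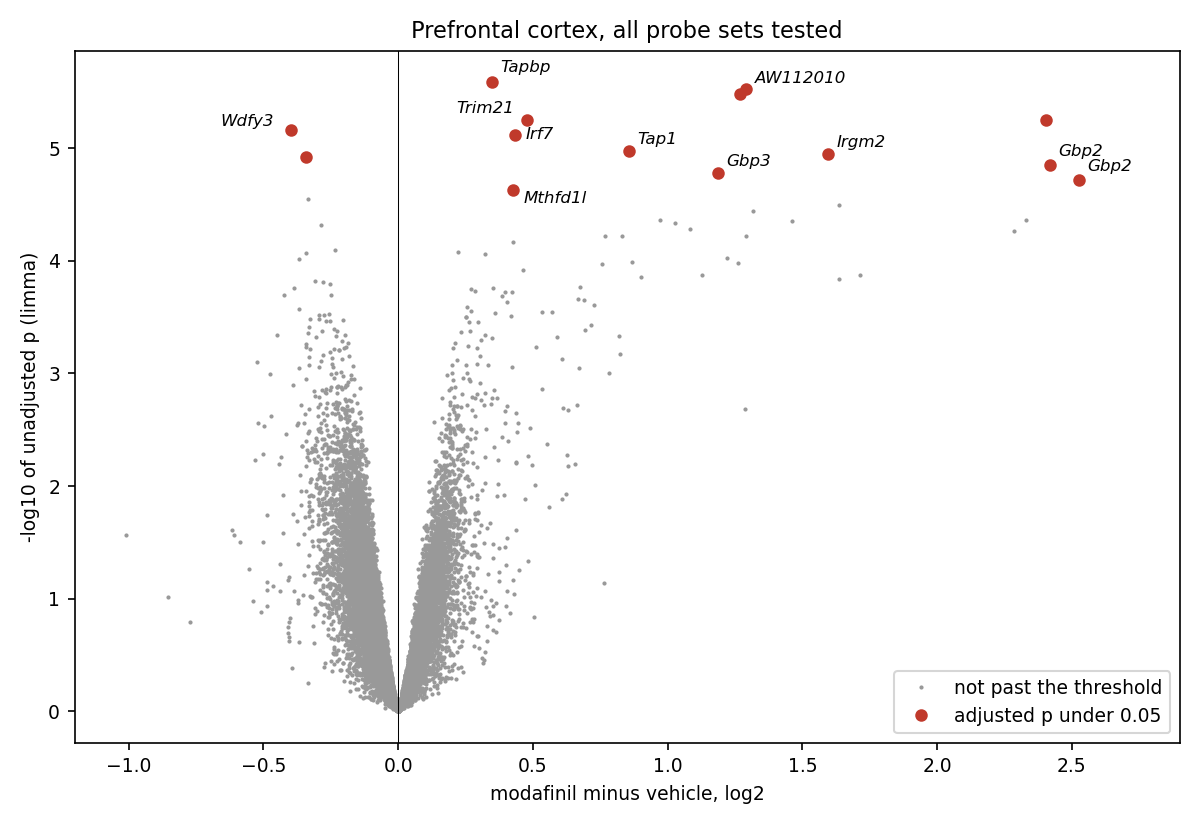
Modafinil minus vehicle (x axis, log2) against −log10 of the unadjusted p (y axis, limma) for the 27022 probe sets tested in prefrontal cortex, with the 14 past the adjusted threshold in red and those with 1 symbol named. The changes above 1 lie almost wholly on the right, up to 2.53 for Gbp2.

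The promoters of 4 of the interferon-induced GTPase genes are shown because both GTPase families were higher in modafinil arrays, and that of Tap1 for contrast. Each window runs from 250 bases before to 50 bases after the start of transcription, 5′ to 3′ on the gene's strand, from RefSeq on build GRCm38.p6. The search, on both strands, was for TTCNNNGAA (GAS, the letters that Stat dimers bind) and for GAAA, any 2 bases and GAAA (ISRE, the letters that Irf-containing complexes bind), and matches are in capitals. The windows are Gbp2 at chr3:142620413-142620712 (plus strand), Gbp3 at chr3:142559794-142560093 (plus strand), Irgm2 at chr11:58214727-58215026 (plus strand), Igtp at chr11:58199306-58199605 (plus strand) and Tap1 at chr17:34187306-34187605 (plus strand).
Gbp2: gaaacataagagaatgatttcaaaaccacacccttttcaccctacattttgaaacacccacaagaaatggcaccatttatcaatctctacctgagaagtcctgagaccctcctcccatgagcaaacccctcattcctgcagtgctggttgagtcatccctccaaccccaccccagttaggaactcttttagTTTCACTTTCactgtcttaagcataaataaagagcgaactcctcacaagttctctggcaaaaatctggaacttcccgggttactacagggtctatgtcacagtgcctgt
Gbp3: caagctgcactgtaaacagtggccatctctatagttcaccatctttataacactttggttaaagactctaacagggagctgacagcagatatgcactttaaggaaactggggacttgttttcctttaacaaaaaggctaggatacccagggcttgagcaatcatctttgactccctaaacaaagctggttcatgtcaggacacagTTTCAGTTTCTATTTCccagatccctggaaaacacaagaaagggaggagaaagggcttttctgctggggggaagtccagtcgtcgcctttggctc
Irgm2: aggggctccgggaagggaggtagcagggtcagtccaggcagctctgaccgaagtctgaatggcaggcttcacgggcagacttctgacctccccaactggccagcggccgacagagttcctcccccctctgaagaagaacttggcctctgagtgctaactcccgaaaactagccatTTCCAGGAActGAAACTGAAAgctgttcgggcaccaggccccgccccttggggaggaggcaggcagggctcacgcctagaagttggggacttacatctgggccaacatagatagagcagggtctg
Igtp: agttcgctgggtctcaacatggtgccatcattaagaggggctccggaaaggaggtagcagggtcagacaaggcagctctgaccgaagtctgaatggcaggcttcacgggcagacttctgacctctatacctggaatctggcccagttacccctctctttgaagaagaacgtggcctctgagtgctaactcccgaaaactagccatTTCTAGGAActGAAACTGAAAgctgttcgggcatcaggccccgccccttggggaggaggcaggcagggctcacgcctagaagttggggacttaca
Tap1: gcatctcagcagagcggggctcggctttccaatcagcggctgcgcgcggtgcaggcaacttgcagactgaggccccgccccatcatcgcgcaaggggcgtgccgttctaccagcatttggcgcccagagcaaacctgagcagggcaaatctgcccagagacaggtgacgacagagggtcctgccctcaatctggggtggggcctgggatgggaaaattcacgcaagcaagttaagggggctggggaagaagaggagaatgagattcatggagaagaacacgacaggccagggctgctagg
Among all 32851 promoter windows in the table, 8.3 percent held a GAS match and 3.44 percent an ISRE match. Of the tested guanylate-binding protein genes with a window, 3 of 3 held an ISRE match and 1 held a GAS match. These 3 genes had 4 windows, whereas the shares above are per window, and 1 of the 2 windows of Gbp3 is shown. Of the tested immunity-related GTPase genes with a window, 3 of 4 held an ISRE match and 2 a GAS match. In Irgm2 and Igtp the GAS and ISRE matches lie 2 bases apart, and the match nearest the start lies 64 and 34 bases before it. In Gbp3 the capitals are 2 ISRE matches that overlap, and in the Tap1 window neither set of letters occurs. A match is a description of the sequence.

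The guanylate-binding proteins, large GTPases that attack pathogen vacuoles, included Gbp2, the named gene with the largest rise. They are close relatives, and cross-hybridization between their probe sets was not tested. The Gbp2 values in the modafinil arrays were 6.29 at the lowest, 9.39 at the median and 10.19 at the highest, against 6.10, 6.52 and 6.85 in the vehicle arrays. All modafinil arrays but array 6 lay above every vehicle array. The difference was 2.53 (SE 0.445, adjusted p = 0.0396), a 5.76-fold change, and a second Gbp2 probe set gave 2.42 (SE 0.415, adjusted p = 0.0345). Gbp3 stood at 8.27, 9.58 and 10.15 (lowest, median, highest) in modafinil arrays and at 8.12, 8.25 and 8.65 in vehicle arrays, a rise of 1.18 (SE 0.206, adjusted p = 0.0371). Again 7 of 8 modafinil arrays exceeded the vehicle range. Gbp6 and Gbp7, of the same family, did not pass, with differences of 1.71 (SE 0.359, adjusted p = 0.0911) and 0.97 (SE 0.184, adjusted p = 0.0589). In all, 4 of 6 family members read here were tested, each gene from its brightest probe set. All 4 were higher, as were 34.8 percent of genes at any size, 2 of them past the threshold, with a median change of 1.45, against −0.033 over the 12715 genes tested. The background at this level was 0.0629 percent of genes past the threshold and higher. The filter used the mean over both groups, and the Gbp2 vehicle median, 6.52, lay below the filter value. A member low in vehicle arrays was therefore tested only if its modafinil values lifted that mean. The count of higher members and the median change were thus partly set by the filter. The other 2 of the 6 members were below the filter and were not tested. Gbp8 was 3.40, 5.04 and 6.31 in modafinil arrays and 3.13, 3.69 and 3.85 in vehicle arrays, with 6 modafinil arrays above the vehicle range. Gbp2b was 4.70, 4.95 and 5.12 in modafinil arrays and 4.73, 4.88 and 5.30 in vehicle arrays, with no modafinil array above that range.

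The immunity-related GTPases, which act beside the guanylate-binding proteins on vacuoles, had changes of like size. Irgm2 was 6.72, 8.91 and 9.16 (lowest, median, highest) in modafinil arrays, against 6.70, 6.89 and 7.16 in vehicle arrays. Here too the lowest modafinil value, that of array 6, lay inside the vehicle range and the other 7 lay above it. Irgm2 rose by 1.60 (SE 0.269, adjusted p = 0.0327). Iigp1, an effector that coats vacuoles, was 6.18, 9.21 and 10.09 in modafinil arrays and 6.14, 6.51 and 6.93 in vehicle arrays, a difference of 2.33 (SE 0.44, adjusted p = 0.0589). Igtp, also called Irgm3, was 8.06, 9.79 and 10.69 in modafinil arrays and 8.00, 8.19 and 8.38 in vehicle arrays, a difference of 1.46 (SE 0.276, adjusted p = 0.0589). Both had 7 of 8 modafinil arrays above the vehicle range and missed the threshold. Ifi47 differed by 1.63 (SE 0.3, adjusted p = 0.0539) and Irgm1, which regulates other members, by 0.83 (SE 0.161, adjusted p = 0.0604). All 5 tested members were higher with an unadjusted p under 0.05, a background share of 3.44 percent, and their median change was 1.60. The Iigp1 vehicle median, 6.51, lay below the filter value, which was applied to the mean over both groups. A member low in vehicle arrays was thus tested only if raised in modafinil arrays. The count and the median were partly set by the filter, and the background share is not a neutral comparison. Gm4951, below the filter and not tested, was 5.37 to 6.86 in modafinil arrays and 5.10 to 5.65 in vehicle arrays.

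**Figure D2:**
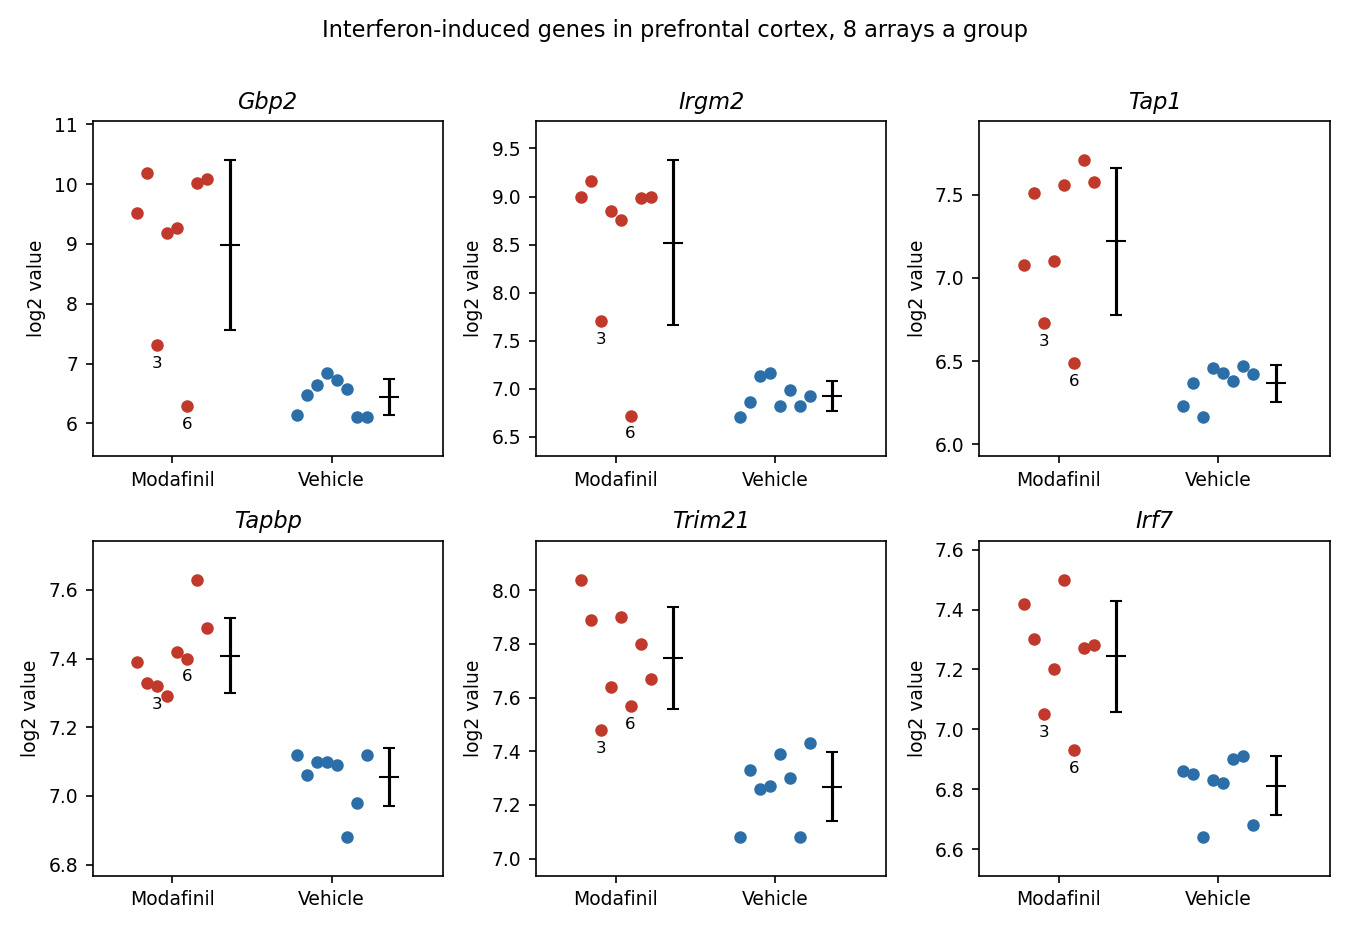
Log2 values (y axis) of 6 genes that rose, in the 8 modafinil arrays (red, left) and the 8 vehicle arrays (blue, right), with mean ± SD beside each group. Modafinil arrays 3 and 6 are numbered. Array 6 lies at the vehicle level for Gbp2 and Irgm2, while Trim21 and the Tapbp probe set past the threshold separate the groups in every array.

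Tap1 and Tapbp, which load class I molecules, rose by less than Gbp2, Gbp3 and Irgm2. In their probe sets past the threshold every modafinil array lay above every vehicle array. Tap1, a subunit of the transporter that brings peptides to class I molecules, stood at 6.49, 7.31 and 7.71 in modafinil arrays and at 6.16, 6.40 and 6.47 in vehicle arrays. The groups did not overlap, as held in that direction for 0.0185 percent of probe sets and 0.0236 percent of genes, and the difference was 0.86 (SE 0.144, adjusted p = 0.0327). Every Tap1 vehicle value lay below the filter value, so its probe set was tested only because modafinil values lifted the mean over both groups. The shares are therefore not a neutral background for Tap1. Tapbp, the tapasin gene, whose product holds class I molecules at that transporter, was 7.29, 7.39 and 7.63 in modafinil arrays and 6.88, 7.10 and 7.12 in vehicle arrays in the probe set past the threshold. It rose by 0.35 (SE 0.052, adjusted p = 0.0297) with no overlap. Its brighter probe set overlapped between the groups, differed by 0.37 (SE 0.099) and did not pass (adjusted p = 0.236). The light chain gene B2m was 10.51, 11.53 and 11.89 in modafinil arrays and 10.56, 10.76 and 10.98 in vehicle arrays. Its groups overlapped, and the difference was 0.61 (SE 0.171, adjusted p = 0.243). Of 12 tested class I genes 7 were higher and 1 lower with an unadjusted p under 0.05, against background shares of 3.44 and 8.55 percent of genes, and the median was 0.21. Other class I genes low in vehicle arrays would likewise be tested only if raised, so the filter may have added to the higher count.

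The catalytic subunits that replace standing ones in the immunoproteasome differed in the same direction without passing. Psmb9 differed by 0.69 (SE 0.152, adjusted p = 0.105) and Psmb8 by 0.82 (SE 0.193, adjusted p = 0.137). The median of the 4 immunoproteasome genes was 0.39, and that of 16 constitutive proteasome genes was −0.02 (0.01 after quantile normalization). Class II genes, which present peptides from vesicles, were led by H2-Eb1 (0.40, SE 0.112, adjusted p = 0.243) and H2-Aa (0.44, SE 0.131, adjusted p = 0.271). The invariant chain gene Cd74 differed by 0.24 (SE 0.064, adjusted p = 0.227). In that list 4 of 5 tested genes were higher with an unadjusted p under 0.05, against 3.44 percent of genes, none past the adjusted threshold.

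Among antiviral genes Trim21, an antibody receptor and ubiquitin ligase of the cytosol, was 7.48, 7.73 and 8.04 in modafinil arrays and 7.08, 7.29 and 7.43 in vehicle arrays. Every modafinil array exceeded every vehicle array, and the rise was 0.48 (SE 0.077, adjusted p = 0.0297). Parp14, an ADP-ribosyltransferase gene, differed by 0.76 (SE 0.155, adjusted p = 0.0785) and Rtp4 by 0.68 (SE 0.144, adjusted p = 0.0977). Of 27 tested genes of this list, 21 were higher with an unadjusted p under 0.05 and none lower, against 3.44 and 8.55 percent of genes, and 1 passed the adjusted threshold, against 0.0629 percent of genes. Their median change was 0.32, below that of either GTPase family.

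Irf7, the transcription factor that amplifies type I interferon production, was 6.93, 7.28 and 7.50 in modafinil arrays and 6.64, 6.84 and 6.91 in vehicle arrays. The groups did not overlap, with modafinil array 6 nearest to the vehicle range. Irf7 rose by 0.43 (SE 0.071, adjusted p = 0.0297). Irf1, a main mediator of the interferon gamma response, differed by 0.34 (SE 0.084, adjusted p = 0.177) and Irf9, a partner of Stat factors, by 0.16 (SE 0.064, adjusted p = 0.37). Of 7 tested genes of this list 5 were higher and 2 lower, from −0.12 to 0.43, with a median of 0.05. An unadjusted p under 0.05 was reached by 3 of them, all higher, against 3.44 percent of genes. Nlrc5, the class I transactivator gene, was below the filter and was not tested. Its highest value was 7.52 in modafinil arrays and 5.43 in vehicle arrays, with 7 of 8 modafinil arrays above the vehicle range. Ciita, the class II transactivator gene, also below the filter, was 6.00 to 6.64 in modafinil arrays and 6.06 to 6.40 in vehicle arrays.

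None of the tested interferon receptor, Jak, Stat and feedback inhibitor genes passed the threshold in either direction. Ifng, the interferon gamma gene, was below the filter at 2.95 to 3.24 in modafinil arrays and 2.83 to 3.18 in vehicle arrays, and Ifnb1 was below it at 5.51 to 5.99 in modafinil arrays and 5.41 to 5.94 in vehicle arrays. At such levels a small amount of either transcript was not detectable. Of the 4 tested receptor chains Ifngr2 had the smallest p, with a difference of −0.27 (SE 0.083, adjusted p = 0.281), and its other probe set gave 0.01. Jak1 differed by −0.16 (SE 0.068, adjusted p = 0.385), the lowest of 5 tested Jak and Stat genes. Of these, 3 were higher and 2 lower, up to 0.17, with a median of 0.08. The 6 tested feedback inhibitors ranged from −0.09 to 0.00. Of the other 2, below the filter and not tested, Usp18, which damps type I interferon signalling, was 6.01, 6.51 and 6.97 in modafinil arrays and 5.81, 5.92 and 6.39 in vehicle arrays, with 4 modafinil arrays above the vehicle range, and Socs1 differed by 0.04.

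The change was not shared evenly by the modafinil arrays. On the guanylate-binding protein list, arrays 1, 2, 4, 5, 7 and 8 lay 1.75 to 2.43 above the vehicle mean, array 3 lay 0.47 above it and array 6 lay 0.13 below it. The vehicle arrays spanned −0.24 to 0.28. The immunity-related GTPases gave 1.73 to 2.34 in those 6 arrays, 0.49 in array 3 and −0.13 in array 6, against −0.18 to 0.17 in vehicle arrays. Array 6 exceeded every vehicle array for 0 of 4 and 0 of 5 genes of the 2 families, against 1521 of all 12715 genes. At that share, 0 in lists this short does not set the families apart from other genes in array 6. Array 3 exceeded every vehicle array for 3 of 4 and 4 of 5, against 2023 of all genes. The remaining modafinil arrays did so for every member, against 926 to 1682 of all genes. For Tapbp, Trim21 and Mthfd1l array 6 stood among the other modafinil arrays, at 7.40, 7.57 and 9.11. Without array 6 the number of probe sets past the threshold was 62, and without array 3 it was 52.

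**Figure D3:**
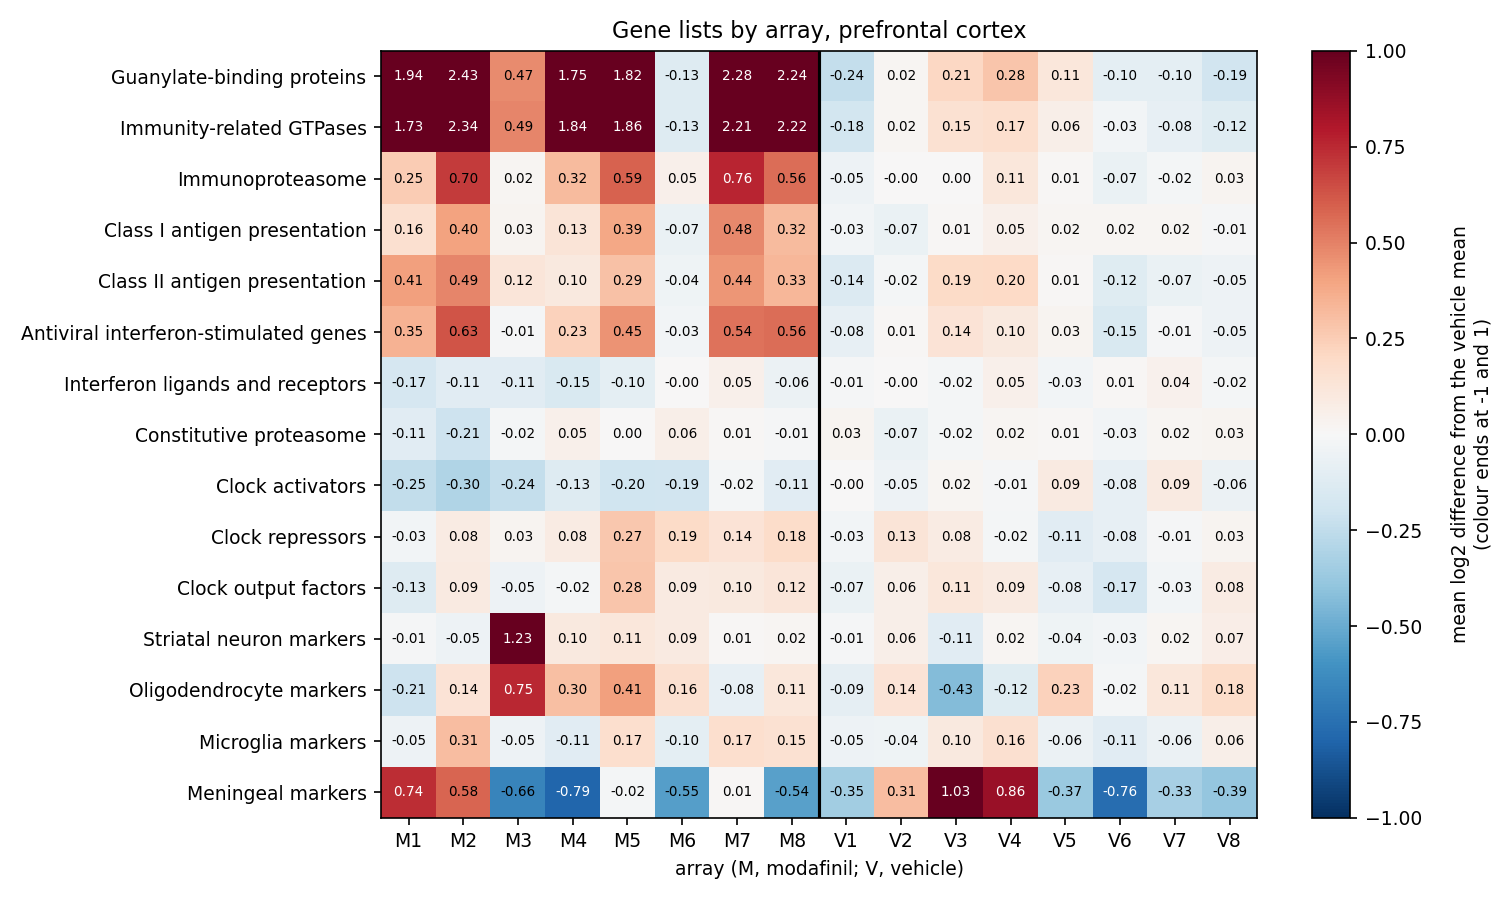
Mean log2 difference from the vehicle mean (number and colour) of each gene list (rows) in each array (columns, M modafinil and V vehicle). The 2 GTPase lists stand between 1.73 and 2.43 in 6 modafinil arrays, at 0.47 and 0.49 in M3 and at −0.13 in M6, and the striatal list reaches 1.23 in M3.

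Further genes stood outside the lists. AW112010, a transcript of immune cells, was 7.53, 8.90 and 9.36 in modafinil arrays and 7.28, 7.42 and 7.63 in vehicle arrays. Only array 6 fell within the vehicle range, and the rise was 1.29 (SE 0.197, adjusted p = 0.0297). The next genes were chosen after their values were seen. The checkpoint ligand gene Cd274 differed by 1.13 (SE 0.235, adjusted p = 0.0911), the death ligand gene Tnfsf10 by 1.03 (SE 0.195, adjusted p = 0.0589) and the xanthine oxidase gene Xdh by 1.26 (SE 0.257, adjusted p = 0.0785). Serpinb9, a granzyme inhibitor, differed by 0.32 (SE 0.065, adjusted p = 0.0742) and Lsp1, a leukocyte actin-binding protein, by 0.46 (SE 0.096, adjusted p = 0.0855). The highest Lsp1 value, 7.52, was in modafinil array 6.

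Mthfd1l encodes a mitochondrial enzyme that makes formate in folate metabolism. It was 8.76, 9.02 and 9.21 in modafinil arrays and 8.27, 8.68 and 8.76 in vehicle arrays, and 7 of 8 modafinil arrays lay above the vehicle range. The rise was 0.43 (SE 0.077, adjusted p = 0.0457). Of 13 tested folate and one-carbon enzymes it alone passed, against 0.0629 percent of genes, 2 were lower with an unadjusted p under 0.05, against 8.55 percent, and the median was −0.02.

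Clock genes differed in both directions, with none past the threshold. Arntl, whose product is the activator at the centre of the loop, was 9.26, 9.45 and 9.56 in modafinil arrays and 9.57, 9.76 and 9.95 in vehicle arrays. Every modafinil array lay below every vehicle array, as held for 0.0786 percent of genes, and the difference was −0.34 (SE 0.061, adjusted p = 0.0508). A second Arntl probe set differed by −0.17 (adjusted p = 0.461). Its partner Clock was 9.52, 9.74 and 9.88 in modafinil arrays and 9.85, 9.91 and 10.01 in vehicle arrays, with 6 of 8 modafinil arrays below the vehicle range. Clock differed by −0.19 (SE 0.055, adjusted p = 0.27) and Npas2, which can replace Clock in the forebrain, by −0.12 (SE 0.057, adjusted p = 0.42), and another Npas2 probe set by −0.05 (SE 0.063, adjusted p = 0.74). All 5 tested activators were lower, against 65.2 percent of genes at any size. An unadjusted p under 0.05 was reached by 3 of them (background 8.55 percent), and by 2 after quantile normalization.

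Among repressors and outputs the differences were mostly upward, in 9 of 12 and 3 of 4 tested genes, against 34.8 percent of genes at any size. Dbp, an output transcription factor, was 10.78, 11.07 and 11.34 in modafinil arrays and 10.13, 10.34 and 11.06 in vehicle arrays. The groups overlapped through vehicle arrays 2 and 8, at 11.06 and 10.83, and the difference was 0.53 (SE 0.12, adjusted p = 0.12), with 0.43 (SE 0.084, adjusted p = 0.0663) in its other probe set. Per2, a repressor, was 9.65, 9.83 and 10.06 in modafinil arrays and 9.15, 9.50 and 9.72 in vehicle arrays, and 6 of 8 modafinil arrays lay above the vehicle range. It differed by 0.36 (SE 0.081, adjusted p = 0.12). The repressor Ciart differed by 0.44 (SE 0.142), Cry1 by 0.19 (SE 0.077), Per3 by 0.14 (SE 0.05) and Nr1d2 by 0.14 (SE 0.047), with adjusted p-values from 0.299 to 0.379. The output factor Tef differed by 0.15 (SE 0.058, adjusted p = 0.349). Nfil3, which competes with Dbp for the same DNA letters, was 7.30, 7.95 and 8.22 in modafinil arrays and 7.94, 8.40 and 9.20 in vehicle arrays, a difference of −0.52 (SE 0.151, adjusted p = 0.267). Of 12 tested repressors 5 were higher with an unadjusted p under 0.05 and none lower, against 3.44 and 8.55 percent of genes.

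**Figure D4:**
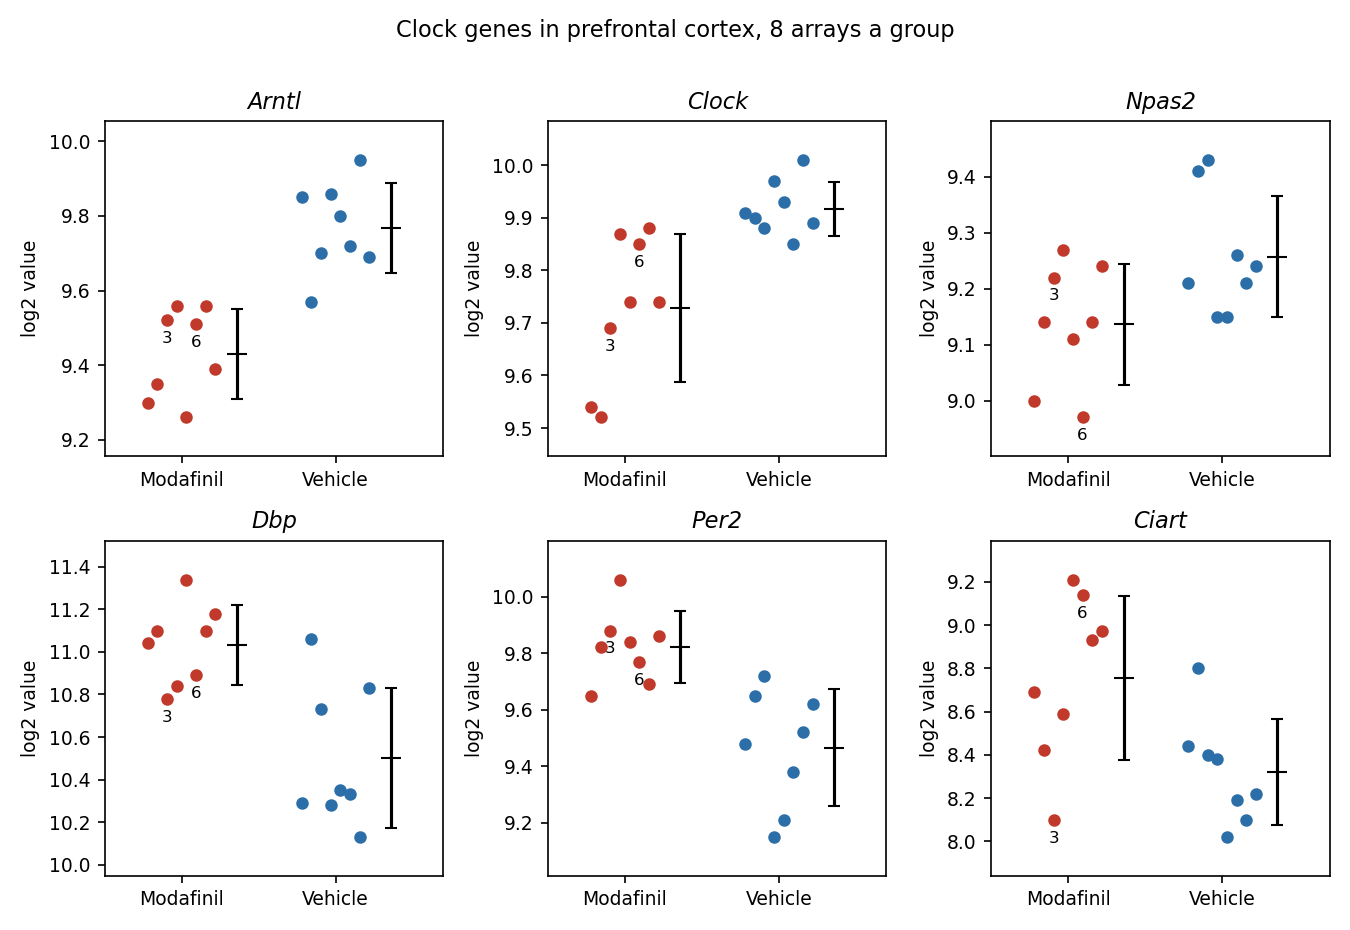
Log2 values (y axis) of 6 clock genes in the 8 modafinil arrays (red, left) and the 8 vehicle arrays (blue, right), with mean ± SD beside each group and modafinil arrays 3 and 6 numbered. Arntl does not overlap between the groups. Array 6 lies with the other modafinil arrays, though its Dbp value is inside the vehicle range. In the plot of interferon-induced genes array 6 lies at the vehicle level for Gbp2 and Irgm2.

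Array 6, at the vehicle level for the GTPases, lay with its group for these clock genes. Its values were 9.51 for Arntl, 10.89 for Dbp and 9.77 for Per2, and that of Dbp lay inside the vehicle range. In array 6, 6 of 12 repressors and 0 of 4 output factors lay above every vehicle array, against 1521 of all 12715 genes. The promoters of Ciart at chr3:95882179-95882478 (minus strand) and Per3 at chr4:151044616-151044915 (minus strand), 2 repressors, are shown because they hold letters that clock factors bind. CACGTG (E-box, bound by Arntl with Clock) and TTATGTAA (D-box, bound by Dbp and Nfil3) are in capitals, and the windows, strand and source are as above.
Ciart: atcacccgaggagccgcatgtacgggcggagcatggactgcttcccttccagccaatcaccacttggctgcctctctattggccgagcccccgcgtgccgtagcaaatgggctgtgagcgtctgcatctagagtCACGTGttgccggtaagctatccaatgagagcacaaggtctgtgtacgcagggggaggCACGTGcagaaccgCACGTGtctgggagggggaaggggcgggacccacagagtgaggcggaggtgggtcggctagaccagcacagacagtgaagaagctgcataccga
Per3: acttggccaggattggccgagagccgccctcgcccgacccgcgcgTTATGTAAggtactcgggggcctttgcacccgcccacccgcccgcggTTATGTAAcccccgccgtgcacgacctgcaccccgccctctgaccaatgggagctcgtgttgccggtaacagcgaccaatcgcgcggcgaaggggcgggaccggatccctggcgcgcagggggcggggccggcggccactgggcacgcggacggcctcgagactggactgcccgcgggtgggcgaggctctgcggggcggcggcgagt
The Ciart window held 3 E-box matches and the Per3 window 2 D-box matches. E-box letters occurred in 7.15 percent of all windows and D-box letters in 0.938 percent. Of 9 tested repressors with a window, 4 held an E-box match and 1 a D-box match. These 9 genes had 13 windows, whereas the shares are per window.

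The named gene that fell, Wdfy3, encodes a scaffold that brings protein aggregates to autophagosomes. In the probe set past the threshold it was 9.05, 9.38 and 9.47 in modafinil arrays and 9.61, 9.72 and 9.94 in vehicle arrays. The groups did not overlap, which held below the vehicle range for 0.0851 percent of probe sets, and the fall was −0.40 (SE 0.064, adjusted p = 0.0297). The other 2 tested Wdfy3 probe sets differed by −0.04 and 0.06, so the change was seen by 1 of 3. No other of 27 autophagy genes passed, and 1 was lower with an unadjusted p under 0.05, or 3.7 percent against 8.55 percent of genes. The next genes by p on the lower side were, from their probe set with the smallest p, Gm17733 (−0.29), Rbm45 (−0.34), Tmed7 (−0.24), the cohesin subunit gene Smc1a (−0.37), the kinase gene Taok1 (−0.31), Katnal1 (−0.25), Tmx4 (−0.39) and Eny2 (−0.42). Their adjusted p-values were 0.0589 to 0.102. For the 10 named genes with the smallest p on this side, 18 of 21 further probe sets had the same sign and 5 of them an unadjusted p under 0.05. All 11 tested cohesin genes were lower, against 65.2 percent of genes at any size, with a median of −0.07, and 6 were lower after quantile normalization. Only 1 of them had an unadjusted p under 0.05, or 9.09 percent, near the 8.55 percent of all genes.

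Genes of neuronal activity and transmission did not pass the threshold. Of 26 immediate early genes 1 was higher and 3 lower with an unadjusted p under 0.05, or 3.85 and 11.5 percent, near the 3.44 and 8.55 percent of all genes. The activity-induced transcription factor Egr4 differed by 0.21 (SE 0.056, adjusted p = 0.236), the growth factor gene Bdnf by −0.33 (SE 0.099, adjusted p = 0.271) and the synaptic pentraxin gene Nptx2 by −0.32 (SE 0.102, adjusted p = 0.284). The GABA transporter gene Slc6a11 differed by −0.43 (SE 0.138, adjusted p = 0.292), the glutamate receptor gene Grm7 by −0.15 (SE 0.045, adjusted p = 0.281) and the histamine autoreceptor gene Hrh3 by 0.16 (SE 0.058, adjusted p = 0.34). A pair of glucocorticoid-responsive genes differed in opposite directions, Tsc22d3 by 0.20 (SE 0.06, adjusted p = 0.27) and Cdkn1a by −0.36 (SE 0.1, adjusted p = 0.243). The dopamine transporter gene Slc6a3 and the orexin receptor genes Hcrtr1 and Hcrtr2 were below the filter and were not tested.

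Cortical markers were present in every array labelled PFC. Tbr1, a transcription factor of cortical projection neurons, was 9.30 to 10.25 in modafinil arrays and 9.0 to 9.72 in vehicle arrays, between the 72.9 and the 92.8 percentile of each array. Slc17a7, the cortical vesicular glutamate transporter, lay between the 71.4 and the 79.7 percentile. Lists of other cell types stood apart in single arrays, and in bulk punches a change in the number of cells of a type and a change in RNA per cell cannot be told apart. Striatal markers were 1.23 above the vehicle mean in modafinil array 3 and −0.05 to 0.11 in the other modafinil arrays, against −0.11 to 0.07 in vehicle arrays. Oligodendrocyte markers, all 16 above every vehicle array in modafinil array 3 (against 15.9 percent of all genes in that array), had a median change of 0.17. All 16 were higher, against 34.8 percent of genes, and 2 had an unadjusted p under 0.05, against 3.44 percent, led by Cldn11 (0.44, SE 0.142, adjusted p = 0.3; 0.26 without array 3 of either group). Meningeal markers spanned −0.79 to 0.74 in modafinil arrays and −0.76 to 1.03 in vehicle arrays. Microglia markers, the resident immune cells, had a median change of 0.06, and 13 of 16 were higher, against 34.8 percent of genes. Of the 16, 1 was higher at an unadjusted p under 0.05, against 3.44 percent of genes. Their levels were −0.11 to 0.31 in modafinil arrays and −0.11 to 0.16 in vehicle arrays. In modafinil arrays 2, 5, 7 and 8, 13, 8, 7 and 5 of them exceeded every vehicle array, against 13.2, 8.41, 8.9 and 7.28 percent of genes. In array 1 that held for 1, and in arrays 3, 4 and 6 for 0. In arrays 4 and 6, 7 and 4 lay below every vehicle array. Border macrophage markers reached 0.41 and 0.46 in modafinil arrays 1 and 2, spanned −0.06 to 0.13 in the other 6, and spanned −0.19 to 0.19 in vehicle arrays. Of 14 lymphocyte markers 10 were below the filter, and the 4 tested spanned −0.09 to 0.24 in modafinil arrays and −0.15 to 0.13 in vehicle arrays. Clic6, a choroid plexus marker, differed by 0.21 (SE 0.05, adjusted p = 0.147). No member of the cell type lists passed the threshold, and the part of other cells in the interferon genes was not tested. RNA quality overlapped between groups, the difference between 3′ and 5′ Gapdh control probe sets being −0.05 to 0.32 in modafinil arrays and −0.03 to 0.21 in vehicle arrays. Modafinil arrays 1 and 2 were below every vehicle array for 38.0 and 36.6 percent of genes, against 6.66 to 19.4 percent in the other modafinil arrays.

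The largest differences of interferon-induced genes were close in size in the other 2 regions of the series, the ventral tegmental area (VTA) and the nucleus accumbens (NAC), with 5 arrays a group each. The Gbp2 difference between modafinil and vehicle was 2.53 in PFC, 2.47 in VTA and 2.19 in NAC, and the Irgm2 difference 1.60, 1.64 and 1.60. The tests of the differences between regions gave adjusted p-values of 0.991 and 0.97 for Gbp2 and of 0.988 and 0.999 for Irgm2. The differences had standard errors of 0.816 for Gbp2 and 0.548 for Irgm2, and gaps of that size were not detectable with these arrays. Trim21 differed by 0.48 in PFC, 0.04 in VTA and 0.18 in NAC (adjusted p of the differences 0.185 and 0.914). Mthfd1l was the one gene among the 10 named whose change differed from another region past the threshold, at 0.43 in PFC and −0.12 in VTA (difference 0.55, adjusted p = 0.0155). Arntl differed by −0.34 in PFC, 0.03 in VTA and −0.40 in NAC (adjusted p of the differences 0.201 and 0.958). One Npas2 probe set, not its brightest, differed by −0.05 in PFC and 0.57 in VTA (adjusted p of the difference 0.0017). Over all probe sets, 227 (0.84 percent) had a PFC change that differed from the VTA change, 40 higher and 187 lower in PFC. The 5 with the smallest p, Synpo2, Rora, Gjc1, Prkcd and Pdp1, differed by 0.82 to 1.67 in VTA and by −0.22 to 0.07 in PFC. No probe set differed between PFC and NAC with limma, and 1327 (4.91 percent) had an unadjusted p under 0.05.

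**Figure D5:**
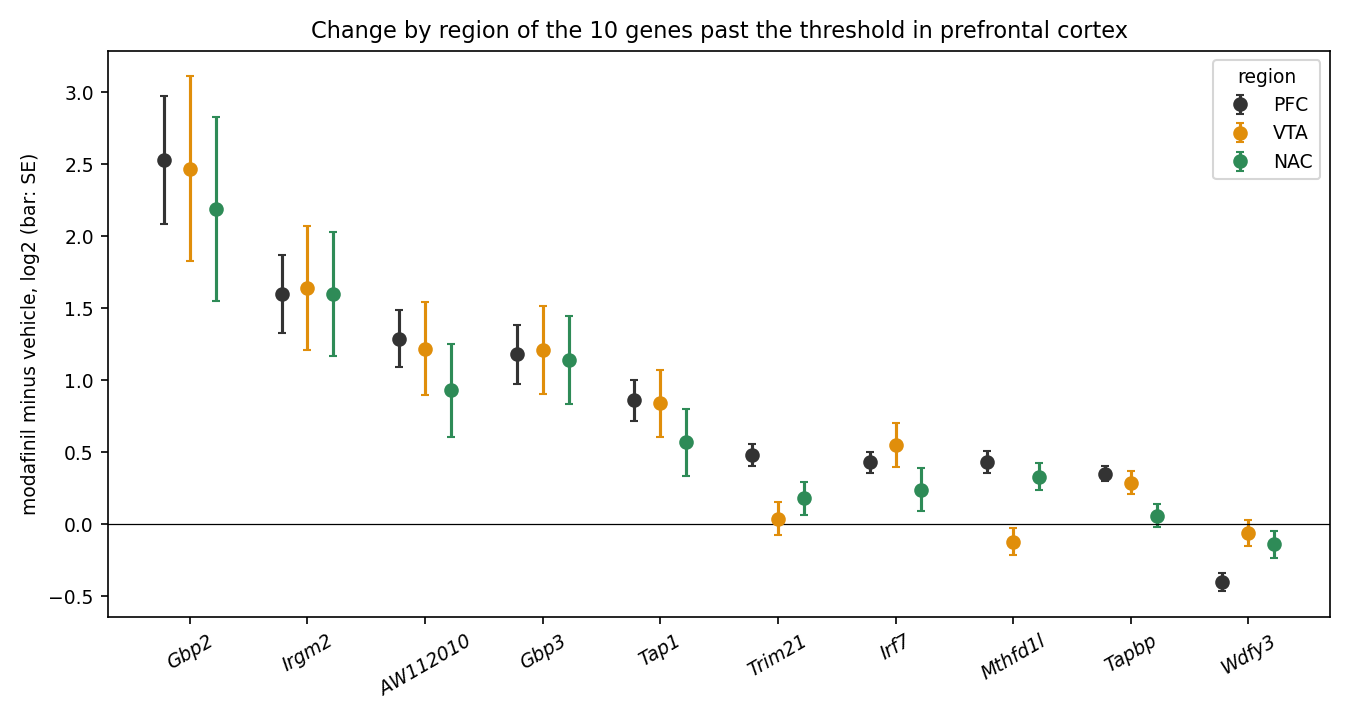
Modafinil minus vehicle (y axis, log2, bars SE) of the 10 named genes past the threshold in prefrontal cortex, for PFC (8 arrays a group), VTA and NAC (5 arrays a group). Gbp2, Irgm2, AW112010, Gbp3 and Tap1, from the left, overlap in their SE bars between PFC and VTA, and Mthfd1l differs between PFC (0.43) and VTA (−0.12).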

How the data were processed

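The authors deposited log2 values for 36 arrays and 45101 probe sets, made with RMA per the submitters' processing notes, with no version given in the sources used here. RMA corrects background, normalizes between arrays and summarises probes, and whether the PFC arrays were normalized apart was not given. Symbols came from the platform annotation, updated through Entrez identifiers (34741 matched); 34945 probe sets had 1 symbol, 932 several and 9160 none. Groups came from sample titles.

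The 27022 probe sets at or above the 40th percentile entered a linear model of the 16 PFC arrays (R 4.3.3, limma 3.58.1, functions lmFit and eBayes), with Benjamini-Hochberg adjustment and a threshold of 0.05. Differences between regions were contrasts of 6 group means over 36 arrays. A list gene was read from its brightest probe set, the lists were summarised by counts and medians, and a list's level in an array is the mean of its members. The filter used the mean over both groups. Genes low in one group were tested only if the other group lifted that mean, and all list counts and medians share this limit. Genes were named if past the threshold, among the 10 smallest p per direction, among the 3 smallest p per direction of a list, in the interferon and clock lists, among the 5 smallest p of a regional difference, or as fixed markers. The members and lists were chosen with earlier results of these data known. The fits were tested on simulated data. Alternatives were other filters, normalization, estimation, weights, a replicate block and arrays left out.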

Additional observations from a re-analysis of the deposited data

Results flagged for a closer look

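Of 206 groups of 8 arrays examined, 12 held an array that stood apart by Dixon's criterion, and chance alone gives about 1 in 20. Modafinil array 3 stood apart for 3 lists, at 1.23 for striatal neuron markers (other modafinil arrays −0.05 to 0.11), 0.56 for dopamine signalling genes (−0.14 to 0.15) and 0.25 for inhibitory interneuron markers (−0.24 to −0.06), each relative to the vehicle mean. Modafinil array 1 was low for immediate early genes at −0.27 (others −0.01 to 0.14), for feedback inhibitors at −0.24 (others −0.05 to 0.02), for Nfil3 at 7.30 (others 7.81 to 8.22) and for Egr4 at 8.28 (others 8.43 to 8.52). Vehicle array 4 stood at 0.51 for red blood cell markers (others −0.27 to 0.09), 0.18 for GABA genes (others −0.07 to 0.04), −0.23 for chemokines (others −0.05 to 0.10) and 9.11 for Hrh3 (others 9.40 to 9.55). Vehicle array 6 was low for Irf9 at 7.56 (others 7.79 to 7.98). Modafinil array 6, at the vehicle level for the interferon-induced GTPases, did not meet the criterion for any list or gene examined; array 3 lay between it and the rest. The modafinil change of Mthfd1l differed between PFC and VTA by 0.55 (PFC minus VTA), and that of a Npas2 probe set by −0.62, both by the limma test of the difference.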

How the results depend on the processing

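The 14 probe sets past the threshold became 17 without a filter and 16 with 1 probe set per gene, 4 with the filter at the 60th percentile, 6 after quantile normalization, 0 with trend and robust estimation (lowest adjusted p 0.0533), 61 with arrayWeights, 36 with all 36 arrays in 1 fit, 45 without vehicle array 3 and modafinil array 3, and 0 with the replicate block. Leaving out 1 array gave 0 to 62, with 62 without modafinil array 6, 52 without modafinil array 3, 13, 10 and 8 without vehicle arrays 2, 4 and 5, and 0 without any one of the other 11. The 14 were all among the calls with arrayWeights and without modafinil array 3 or 6. Replicate numbers did not pair the arrays: the correlation of same-numbered deviations ran from −0.227 to 0.267, and 1 of 8 pairs matched best with its own number. Differences from VTA passed for 227 probe sets, 333 after quantile normalization of all 36 arrays and 224 with trend and robust estimation; those from NAC for 0 in each. Of 1569 values of 62 genes under the alternatives 4 changed sign, all in other probe sets: Ifngr2 (0.01), Wdfy3 (0.06) and Taok1 (0.02 in 2). For the 10 genes past the threshold no alternative that left out 1 array changed the direction, and Gbp2 ran from 2.35 to 2.91. They were chosen from these same arrays, so an unchanged direction was largely set by that choice. Each of the 10 failed the threshold in at least 1 such fit, with highest limma adjusted p-values of 0.0747 to 0.124. Causes were not tested.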
